A study of Oryza sativa with 8 samples.

Results

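The Aux/IAA repressors and the auxin response factors (ARFs) of rice were taken as 55 loci listed by their identifiers in release 7 of the Michigan State University annotation, 30 Aux/IAA genes (OsIAA) and 25 ARF genes (OsARF), of 55986 genes in the count tables. Bulk RNA-seq was performed on 4 digested and 4 intact root samples of Xkitaake seedlings, the comparison that shows which genes change when root cells are turned into protoplasts. Digested roots had been treated with the enzyme cocktail that removes cell walls, and these samples held the freed protoplasts together with the pieces that stayed undigested. Intact roots were harvested directly and had no treatment. All seedlings carried the wild-type label, were grown on gelled nutrient solution and spent 1 to 3 days at 28 °C before harvest. Xkitaake, the line behind every sample, is Kitaake rice with the XA21 resistance transgene under a maize ubiquitin promoter. The labels do not say whether replicates came from separate cultures, so the p-values measure the spread between these samples, which may be technical. The locus LOC_Os01g48450 had no row in the tables, which left 29 Aux/IAA genes and 25 ARF genes with values. Gene names follow the study's sheet of auxin genes, where OsARF4 is also called OsARF2 and OsARF23 is also called OsARF1.

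Both families act in the nuclear auxin pathway. ARFs bind auxin response elements in promoters, and Aux/IAA proteins bind ARFs and recruit corepressors of the TOPLESS type. Auxin brings Aux/IAA proteins to the F-box receptors TIR1 and AFB, which mark them for degradation and so free the ARFs. Many Aux/IAA genes are themselves induced by auxin, which makes the family a feedback arm of the pathway. ARFs with a glutamine-rich middle region activate transcription, whereas most of the others are held to repress it. In rice, mutations that stabilize OsIAA11 or OsIAA13 block lateral root formation, and a stabilized OsIAA23 disturbs the quiescent centre.

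Sequencing depth differed between the groups and limited what could be seen of the low members. Digested libraries held 115006 to 471019 counts on genes, against 2333236 to 3595349 in intact libraries. One count was therefore worth 2.46 to 9.29 CPM (counts scaled to the library total with TMM factors) in digested roots and 0.249 to 0.407 CPM in intact roots. Reads with several places in the genome, which were not counted, made up 13.0% to 24.3% of digested libraries and 3.93% to 5.36% of intact libraries. Each QuantSeq read marks the 3′ end of 1 transcript, so CPM were compared between genes without division by length. Markers of root cell types also moved: of 58 markers from the study, 47 could be tested, and 28 were lower and 1 was higher in digested roots. Over all tested genes 18.5% were lower and 20.0% higher, 38.5% in either direction. Summed trichoblast markers stood at 83.3 to 195 CPM in digested roots and at 496 to 659 CPM in intact roots, and 3 of the 11 had no count in digested roots. Xylem markers summed to 193 to 316 CPM in digested and 540 to 787 CPM in intact roots, and vascular markers to 114 to 295 CPM against 491 to 762 CPM. Cortex markers summed to 372 to 666 CPM in digested and 684 to 1031 CPM in intact roots. For root cap markers the sums were 140 to 275 CPM against 330 to 500 CPM, and for sclerenchyma markers 8.77 to 22.7 CPM against 48.9 to 75.7 CPM. The single epidermis marker stood at 0 to 19.7 CPM in digested and 30.2 to 41.1 CPM in intact roots. Phloem markers summed to 0 to 12.3 CPM in digested roots, where 2 of the 4 had no count, and to 7.89 to 11.8 CPM in intact roots. Sums also overlapped for endodermis markers, at 90.9 to 305 CPM in digested and 155 to 274 CPM in intact roots with 1 of 5 called. The same held for exodermis markers, at 21.9 to 34.4 CPM and 30.9 to 37.8 CPM, with 1 of 2 tested markers called lower. Atrichoblast marker sums overlapped too, at 43.8 to 76.2 CPM in digested and 63.6 to 96.5 CPM in intact roots. Of the 4 atrichoblast markers, however, 2 were called lower and 1, OsEXPA8, was called higher. Meristem markers summed to 270 to 427 CPM in digested roots and 283 to 397 CPM in intact roots, and edgeR called 0 of the 5, with 1 at an unadjusted p under 0.05 and 0 by DESeq2 and limma-voom. Fewer cells of a type and less RNA per cell cannot be told apart in bulk samples. The part of these marker and depth differences in the results on the 2 families was not tested.

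Members of both families were called in both directions, the ARFs at a share near that of all tested genes. Of the 54 members with a row, 38 passed the filter on low counts, 19 in each family, and 21 of these differed between digested and intact roots at an adjusted p under 0.05 (edgeR quasi-likelihood test, Benjamini-Hochberg adjustment over 13104 genes). Across all tested genes 38.5% passed the same test, beside 68.4% of the tested Aux/IAA genes and 42.1% of the tested ARFs. Among the members, 8 were higher in digested roots, where the share over all tested genes was 20.0%, and 13 were lower, where that share was 18.5%. The Aux/IAA genes contributed 6 higher and 7 lower members, and the ARFs 2 higher and 6 lower. The groups did not overlap at all for 18 members (37.2% of all tested genes), of which 6 were higher (17.4% of all tested genes) and 12 lower in digested roots (19.8%). With a log2 fold change of at least 2 in size as a further condition, 2 Aux/IAA genes and 5 ARFs remained, and 16.9% of all tested genes did. Only OsARF6 was among the higher genes of this size, which made up 9.06% of all tested genes, and the other 6 were among the lower ones, 7.8% of all tested genes. The median log2 fold change (digested over intact) was -0.46 for the tested Aux/IAA genes, -0.32 for the tested ARFs and -0.06 for all tested genes. Because low genes passed the filter mostly through the deeper intact libraries, these counts and medians describe the tested members and not the families. The ARF counts were the less stable ones, but the filter was applied anew in each fit, so the tested genes changed with it. With an intact library left out, 8689 to 8805 genes in all and 11 or 12 ARFs could be tested. Of these ARFs, 3, 2, 2 and 3 were lower without intact replicates 1, 2, 3 and 4. OsIAA2, OsARF3, OsARF5, OsARF10 and OsARF18 did not pass the filter in any of these 4 fits. Without an intact library 17 or 18 Aux/IAA genes could be tested, and without a digested library 21 Aux/IAA genes and 21 ARFs. The number past a log2 fold change of 2 differed between these fits too, over tested sets that were not the same. For Aux/IAA genes it was 1 without intact replicate 1, 0 without intact replicate 4 (edgeR, 0 also at an unadjusted p under 0.05, and 3 by DESeq2 and 2 by limma-voom with all libraries) and 4 without digested replicate 2 or 3. For ARFs it was 2, 0, 2 and 1 without intact replicates 1 to 4 (for the 0, edgeR gave 0 at an unadjusted p under 0.05, and with all libraries DESeq2 gave 4 and limma-voom 1) and 2 without digested replicate 1 or 4. Over these differing sets, the ARF median was 0.075, 0.12 and 0.17 without intact replicates 1, 2 and 3, and -0.96 and -0.80 without digested replicates 2 and 3.

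**Figure D1:**
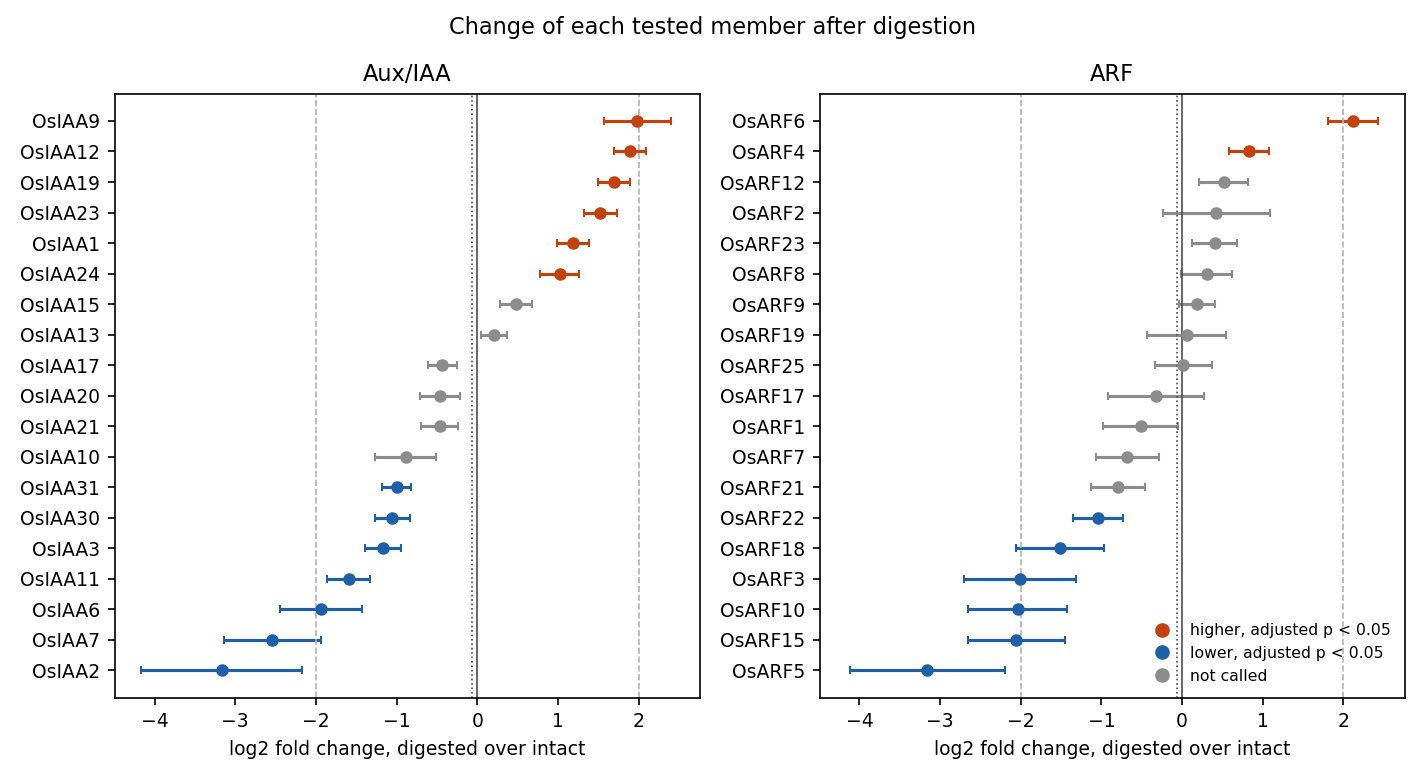
Log2 fold change, digested over intact roots, for the 19 tested Aux/IAA genes and the 19 tested ARFs, with bars for 1 standard error. Orange marks higher and blue lower members at an adjusted p under 0.05, grey the rest, dashed lines a log2 fold change of 2 in size and the dotted line the median of all tested genes (-0.06). The Aux/IAA genes spread from -3.17 to 1.99, with 8 of 19 positive and 6 of these called higher. The ARFs spread from -3.16 to 2.12, with 9 of 19 positive and 2 of these called higher.

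In digested roots, 6 Aux/IAA genes rose: OsIAA9, OsIAA12, OsIAA19, OsIAA23, OsIAA1 and OsIAA24. All 6 had mean levels between 32.0 and 109 CPM in intact roots, so they came from the middle of the family. OsIAA12 reached 386, 371, 214 and 462 CPM in digested replicates 1 to 4, against 79.5, 109, 104 and 99.2 CPM in intact replicates 1 to 4. Its lowest digested library was above every intact one, and the log2 fold change was 1.89 (SE 0.20, adjusted p = 8.37e-09, edgeR). OsIAA9 had 206, 106, 37.2 and 129 CPM in digested roots and 16.5, 48.8, 37.0 and 25.7 CPM in intact roots. Digested replicate 3 lay within the range of the intact libraries, and the rise of 1.99 on the log2 scale carried a larger error than the other 5 (SE 0.41, adjusted p = 0.00183, edgeR). The other 4, chosen after their values were seen, showed no overlap between the groups. Here and below, means are given with the SD of the 4 libraries. OsIAA19 averaged 345 ± 83.2 CPM in digested and 109 ± 16.6 CPM in intact roots, which makes a log2 fold change of 1.70. OsIAA23, whose product acts in quiescent centre maintenance, averaged 231 ± 45.1 CPM in digested and 78.2 ± 12.9 CPM in intact roots, a log2 fold change of 1.52. OsIAA1, which alters auxin and brassinosteroid responses in rice when overexpressed, stood at 175 ± 19.4 CPM in digested and 75.3 ± 3.58 CPM in intact roots. OsIAA24 stood at 147 ± 37.1 CPM in digested and 74.7 ± 20.5 CPM in intact roots, the smallest of the 6 rises at 1.02. The highest adjusted p of these 4 was 0.00112 (edgeR), for OsIAA24. Each of the 6 stayed called when any single library was left out.

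A further 7 Aux/IAA genes fell in digested roots, among them 4 well counted and 3 low members. OsIAA31, the second most abundant Aux/IAA transcript of intact roots, had 210, 258, 167 and 250 CPM in digested roots and 445, 436, 396 and 530 CPM in intact roots. Every digested library was below every intact one, and the log2 fold change was -0.999 (SE 0.18, adjusted p = 6.10e-05, edgeR). The next 3, named after their values were seen, fell likewise without overlap. OsIAA30 averaged 124 ± 27.3 CPM in digested and 268 ± 60.2 CPM in intact roots (log2 fold change -1.05). OsIAA3 averaged 88.3 ± 32.1 CPM in digested and 208 ± 20.5 CPM in intact roots (log2 fold change -1.17). OsIAA11, the lateral root regulator, averaged 57.6 ± 32.2 CPM in digested and 161 ± 8.31 CPM in intact roots (log2 fold change -1.60). These 4 falls had adjusted p-values of at most 0.000297 (edgeR) and persisted without any single library.

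The 3 low members that fell rested on a handful of counts in digested roots. OsIAA2 had 0, 2.46, 0 and 0 CPM in digested roots, a single count in all, and 7.91, 15.5, 7.53 and 12.5 CPM in intact roots, where 131 counts were found. Its log2 fold change was -3.17 (SE 0.99, adjusted p = 0.0123, edgeR), and the exact binomial interval of the log2 ratio of summed counts ran from -8.57 to -0.75. Without digested replicate 2, which holds the only count, the fitted value was -7.29. OsIAA2 could be tested only with all 4 intact libraries, the group where it is high. OsIAA7 had 4.38, 2.46, 18.6 and 0 CPM in digested roots and 18.3, 32.1, 29.1 and 29.7 CPM in intact roots. The groups met at the upper end of the digested range, and the log2 fold change was -2.54 (SE 0.60, adjusted p = 0.00121, edgeR, counting interval -4.47 to -1.21). OsIAA7 did not pass the filter without intact replicate 2, 3 or 4, libraries of the group where it is high. OsIAA6, linked in rice to drought tolerance and tiller outgrowth, had 8 counts in digested and 415 in intact roots, an average of 5.40 ± 8.14 CPM against 34.2 ± 7.36 CPM. Its log2 fold change was -1.94 (SE 0.50, adjusted p = 0.00291, edgeR) with all libraries and -4.12 without digested replicate 2.

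**Figure D2:**
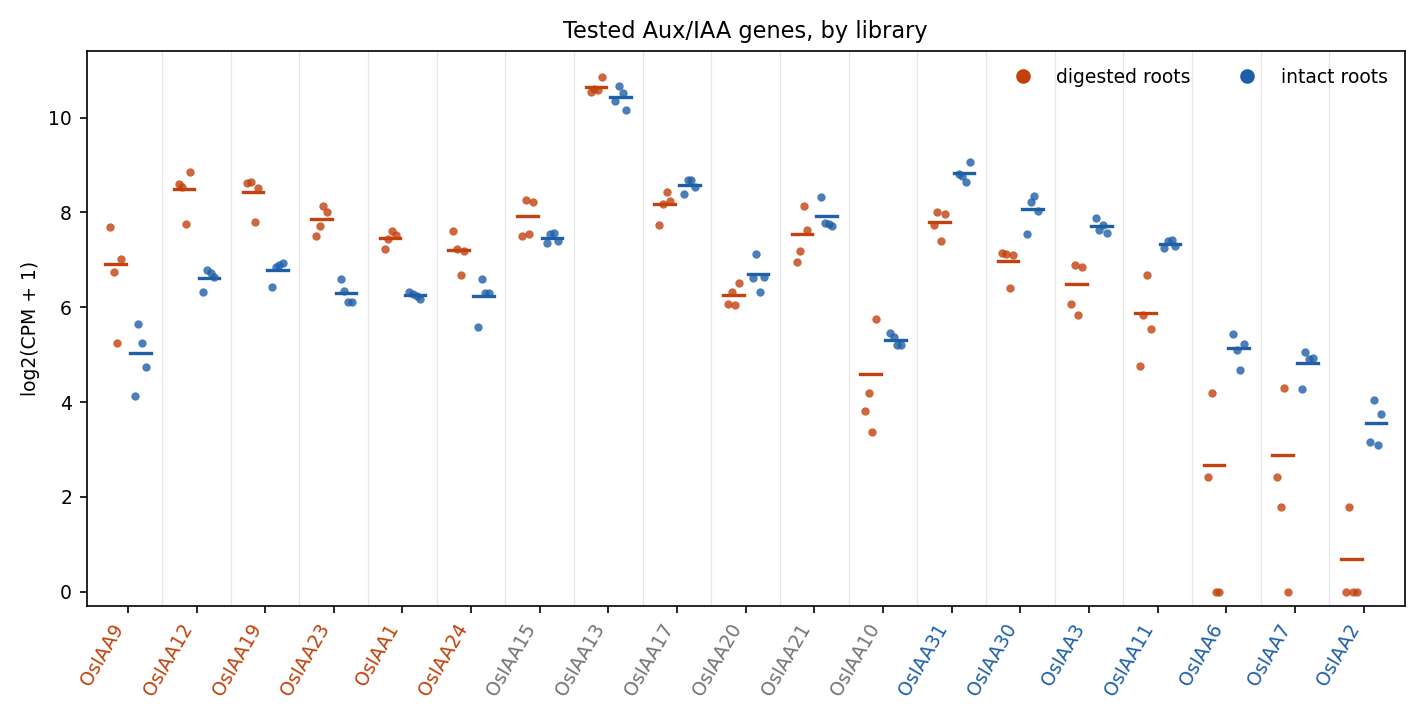
Level of each tested Aux/IAA gene in every library as log2(CPM + 1), digested roots in orange to the left of intact roots in blue, with a bar at the mean CPM of 4 libraries. Gene names are orange for the 6 that rose, blue for the 7 that fell and grey for the 6 not called. OsIAA13 stands above all others in both groups, and OsIAA2, OsIAA7 and OsIAA6 reach 0 in digested libraries.

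Genes with consecutive identifiers did not always move together. OsIAA11 (LOC_Os03g43400) fell and OsIAA12 (LOC_Os03g43410) rose, whereas OsIAA30 (LOC_Os12g40890) and OsIAA31 (LOC_Os12g40900) both fell. The digested-over-intact log2 fold changes of the first pair were -1.60 and 1.89, and those of the second -1.05 and -0.999. Coordinates and sequences of these loci were not analysed here.

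The most abundant member of either family, OsIAA13, did not pass the test. It had 1477, 1544, 1524 and 1863 CPM in digested roots and 1307, 1626, 1467 and 1138 CPM in intact roots. The groups overlapped, and the log2 fold change was 0.21 (SE 0.16, adjusted p = 0.313, edgeR), with a sign that turned when libraries were scaled by total counts or upper-quartile factors. OsIAA17, among the most abundant members of both groups, had 210, 290, 344 and 303 CPM in digested roots and 336, 408, 408 and 372 CPM in intact roots. Only digested replicate 3 reached into the intact range, and the log2 fold change of -0.43 (SE 0.18) narrowly missed the threshold (adjusted p = 0.0573, edgeR). OsIAA17 was called lower under DESeq2's size factors, total counts, upper-quartile factors, no filter, at least 10 CPM in 4 libraries, and by DESeq2 itself. The same held with intact counts thinned to the digested depth and with the deepest 2 digested libraries. It also held without intact replicate 1 or 4 or digested replicate 2, 3 or 4. Log2 fold changes of OsIAA17 went down to -0.74. No call was made by limma-voom, with a replicate block, or without intact replicate 2 or 3 or digested replicate 1. The other 4 members without a call, OsIAA10, OsIAA15, OsIAA20 and OsIAA21, had log2 fold changes between -0.89 and 0.48. Their adjusted p-values began at 0.0513 (edgeR), that of OsIAA15, which averaged 241 ± 67.9 CPM in digested and 176 ± 13.1 CPM in intact roots. OsIAA10, OsIAA20 and OsIAA21 were called lower under total counts and upper-quartile factors. OsIAA10 and OsIAA21 were so too under DESeq2's size factors, no filter and the deepest 2 digested libraries. DESeq2, at least 10 CPM in 4 libraries and leaving out digested replicate 4 also gave OsIAA10, and leaving out digested replicate 3 gave OsIAA21. OsIAA15 gained no call.

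The remaining 10 Aux/IAA genes with a row did not pass the filter on low counts. OsIAA22, OsIAA28 and OsIAA29 had no count in any of the 8 libraries. OsIAA4, OsIAA8, OsIAA14, OsIAA25 and OsIAA27 had no count in digested roots and 20 to 52 counts in intact roots, where they averaged 1.63 to 4.42 CPM. At the depth of the digested libraries 3 counts over the group equal 3.43 CPM, so a difference of this size was at the limit of detection. OsIAA18 had 4 counts in digested and 60 in intact roots, 2.46 ± 4.92 CPM against 5.04 ± 1.32 CPM. OsIAA26 had 1 count in digested and 128 in intact roots and missed the filter narrowly, with a log2 ratio of summed counts of -3.22 (counting interval -8.53 to -0.71).

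Among the ARFs, the activator class (9 genes) showed 1 rise and 1 fall in 7 tested members, a called share of 28.6% where all tested genes had 38.5%, with a median log2 fold change of 0.01. OsARF6, an activator related to ARF6 and ARF8 of Arabidopsis and targeted by miR167, had 43.8, 71.3, 65.1 and 98.5 CPM in digested roots and 21.6, 12.6, 15.4 and 12.7 CPM in intact roots. The lowest digested library held more than 2 times the CPM of the highest intact one. Its log2 fold change of 2.12 (SE 0.31, adjusted p = 2.20e-06, edgeR) was the largest rise of the 38 tested members and stayed called without any single library. Over the alternatives in which OsARF6 could be tested, the value ran from 1.81 to 2.27. By DESeq2 and without intact replicate 2 or 4 it was under 2. Its 3 relatives in this branch gave no call. OsARF12, which acts in root elongation, averaged 41.1 ± 15.5 CPM in digested and 30.6 ± 5.39 CPM in intact roots. OsARF17 averaged 10.4 ± 6.97 CPM against 10.2 ± 2.39 CPM, and OsARF25 averaged 24.4 ± 8.83 CPM against 23.97 ± 1.38 CPM. Grouping the ARFs by type, here and in the next paragraph, used general knowledge of the family and was done after the values were seen.

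The activators related to ARF7 and ARF19 of Arabidopsis included the fall. OsARF5 had 0, 2.46, 0 and 0 CPM in digested roots and 8.27, 11.4, 8.61 and 14.2 CPM in intact roots, from 1 count and 132 counts. The log2 fold change was -3.16 (SE 0.96, adjusted p = 0.00968, edgeR), with a counting interval of -8.58 to -0.76 for the ratio of summed counts. Without digested replicate 2, which holds the only count, the fitted value was -7.28. OsARF5 could be tested only with all 4 intact libraries, the group where it is high. OsARF21 averaged 21.2 ± 12.1 CPM in digested and 44.3 ± 6.26 CPM in intact roots, and although the groups did not overlap its adjusted p was 0.0660 (edgeR). OsARF21 was called lower under DESeq2's size factors, total counts, upper-quartile factors, no filter and DESeq2, and without intact replicate 1 or 4 or digested replicate 2. OsARF19 gave 12.9 ± 12.5 CPM in digested and 15.0 ± 3.53 CPM in intact roots. OsARF16, known for its role under phosphate starvation, had 1 count in digested and 7 in intact roots. OsARF11, the rice relative of Arabidopsis MONOPTEROS, had 0 and 7 counts. Neither of the last pair could be tested.

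The 16 ARFs outside the activator class had 1 rise and 5 falls in 12 tested members, with a median log2 fold change of -0.60. Over all tested genes 20.0% were higher and 18.5% lower. The falls are given here by type, first the ETTIN-like ARFs, which in plants are targeted by tasiRNAs, and then the ARFs targeted by miR160. No test of these types was run, and OsARF3, OsARF10 and OsARF18 could be tested only with all 4 intact libraries, the group where they are high. Of the 4 ETTIN-like genes, OsARF3 and OsARF15 fell. OsARF3 had 0, 7.37, 0 and 0 CPM in digested roots and 13.7, 13.0, 13.3 and 15.2 CPM in intact roots, a log2 fold change of -2.01 (SE 0.70, adjusted p = 0.0228, edgeR). All of its 3 digested counts lay in replicate 2. The fitted value was -7.64 without that library, and without digested replicate 1 the call was lost (-1.66, adjusted p = 0.0776, edgeR). The OsARF3 call was also lost with a replicate block and with the deepest 2 digested libraries (adjusted p = 0.0558 and 0.0875, edgeR). OsARF15 had 0, 2.46, 9.29 and 22.7 CPM in digested roots and 21.6, 31.7, 23.3 and 21.7 CPM in intact roots. Digested replicate 4 lay within the intact range, and the log2 fold change of -2.05 (SE 0.60, adjusted p = 0.00708, edgeR) became -1.65 without digested replicate 2 (adjusted p = 0.0678) and -3.22 without digested replicate 4. OsARF2 averaged 10.0 ± 13.2 CPM in digested and 6.77 ± 1.80 CPM in intact roots without a call. OsARF14 was too low for the test, with 2 counts in digested and 98 in intact roots.

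Of the 4 ARFs known as miR160 targets, OsARF10, OsARF18 and OsARF22 fell and OsARF8 did not pass the test. OsARF10 had 0, 7.37, 9.29 and 0 CPM in digested roots and 18.7, 20.3, 15.8 and 20.4 CPM in intact roots. No digested library reached the intact range, and the log2 fold change was -2.04 (SE 0.61, adjusted p = 0.00924, edgeR), or -3.25 without digested replicate 2. OsARF22, the best counted of the 3, averaged 24.7 ± 6.51 CPM in digested and 53.6 ± 6.39 CPM in intact roots, a log2 fold change of -1.04 (SE 0.31, adjusted p = 0.00833, edgeR). OsARF18 averaged 4.17 ± 5.80 CPM in digested and 19.3 ± 0.59 CPM in intact roots (log2 fold change -1.52, adjusted p = 0.0284, edgeR). The OsARF18 call was lost without digested replicate 1 (adjusted p = 0.0731) or digested replicate 4 (adjusted p = 0.0609), and its value was -3.30 without digested replicate 2. A replicate block and the deepest 2 digested libraries lost this call too. OsARF8 averaged 39.1 ± 22.3 CPM in digested and 35.6 ± 5.55 CPM in intact roots.

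**Figure D3:**
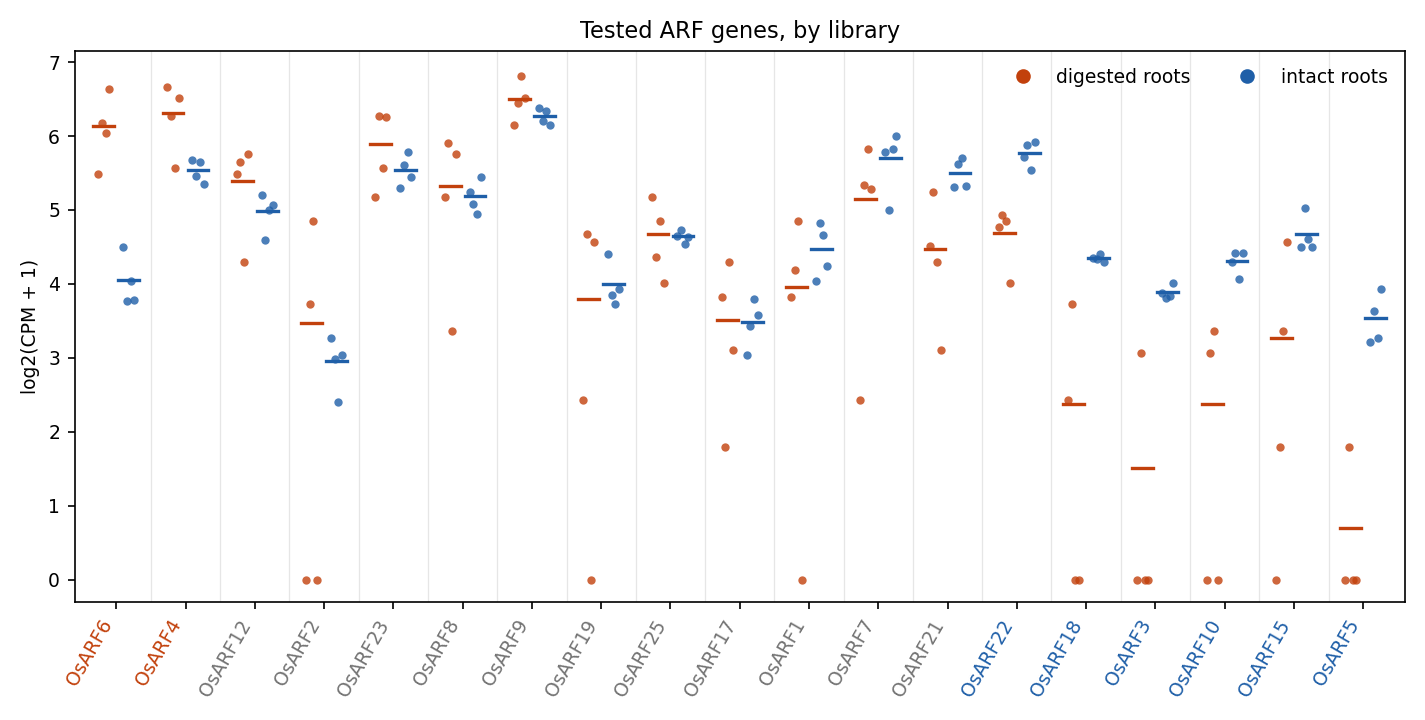
Level of each tested ARF gene in every library as log2(CPM + 1), digested roots in orange to the left of intact roots in blue, with a bar at the mean CPM of 4 libraries. Gene names are orange for the 2 that rose, blue for the 6 that fell and grey for the 11 not called. OsARF6 separates the groups upward, and 5 of the 6 falling genes reach 0 in at least 1 digested library.

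The remaining 8 ARFs included the most abundant ones. OsARF4, known in rice as a regulator of grain size, had 101, 76.2, 46.5 and 90.9 CPM in digested roots and 50.3, 43.1, 49.1 and 39.9 CPM in intact roots. Digested replicate 3 lay among the intact libraries, and the log2 fold change was 0.83 (SE 0.25, adjusted p = 0.00868, edgeR). That call was lost without digested replicate 1, 2 or 4 or intact replicate 4, at adjusted p-values of 0.107, 0.0761, 0.0510 and 0.0514 (edgeR). It was also lost under total counts, upper-quartile factors and thinned intact counts (adjusted p = 0.0880, 0.0668 and 0.0912, edgeR). OsARF9, the most abundant ARF, had 70.1, 86.0, 112 and 90.9 CPM in digested roots and 82.0, 72.8, 80.4 and 70.1 CPM in intact roots. With a log2 fold change of 0.19 (SE 0.23, adjusted p = 0.561, edgeR) no difference was detected, and the sign turned under total counts and upper-quartile factors. OsARF23, which activates a formin gene of root cells in rice, had 35.1, 76.2, 46.5 and 75.7 CPM in digested roots and 38.5, 47.6, 54.2 and 42.6 CPM in intact roots (log2 fold change 0.40, SE 0.28, adjusted p = 0.265, edgeR). The groups overlapped, and without digested replicate 2 the value was -0.04. OsARF7 had 4.38, 39.3, 55.8 and 37.9 CPM in digested roots and 54.3, 30.9, 55.6 and 62.8 CPM in intact roots (log2 fold change -0.68, SE 0.39, adjusted p = 0.187, edgeR). Digested replicate 1 was far below the others, and without it the value was -0.37. OsARF7 stood at -1.12 without digested replicate 2, and it was called lower under total counts (-0.99, adjusted p = 0.0473) and with thinned intact counts (-1.06, adjusted p = 0.0332, edgeR). OsARF1 averaged 14.6 ± 11.5 CPM in digested and 21.3 ± 5.49 CPM in intact roots, again without a call. OsARF24 had 1 count in digested and 64 in intact roots, and OsARF13 and OsARF20 had none in any library.

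The families were next compared as wholes. Summed over its members, the Aux/IAA family reached 4029, 4392, 3885 and 4885 CPM in digested roots and 3785, 4363, 4060 and 3728 CPM in intact roots. The ARF family reached 460, 637, 520 and 591 CPM in digested roots and 582, 565, 582 and 581 CPM in intact roots. Both sums overlapped between the groups, although 21 single members differed. The ratio of Aux/IAA to ARF transcripts was 7.85 ± 0.83 in digested and 6.91 ± 0.60 in intact roots. The log2 ratio was higher in digested roots by 0.18, with a pooled SD of 0.14, and the ranges of 6.90 to 8.75 in digested and 6.42 to 7.72 in intact roots overlapped. Activator ARFs alone summed to 182 ± 28.6 CPM in digested and 152 ± 5.41 CPM in intact roots, and the other ARFs to 370 ± 56.9 CPM in digested and 426 ± 5.81 CPM in intact roots.

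**Figure D4:**
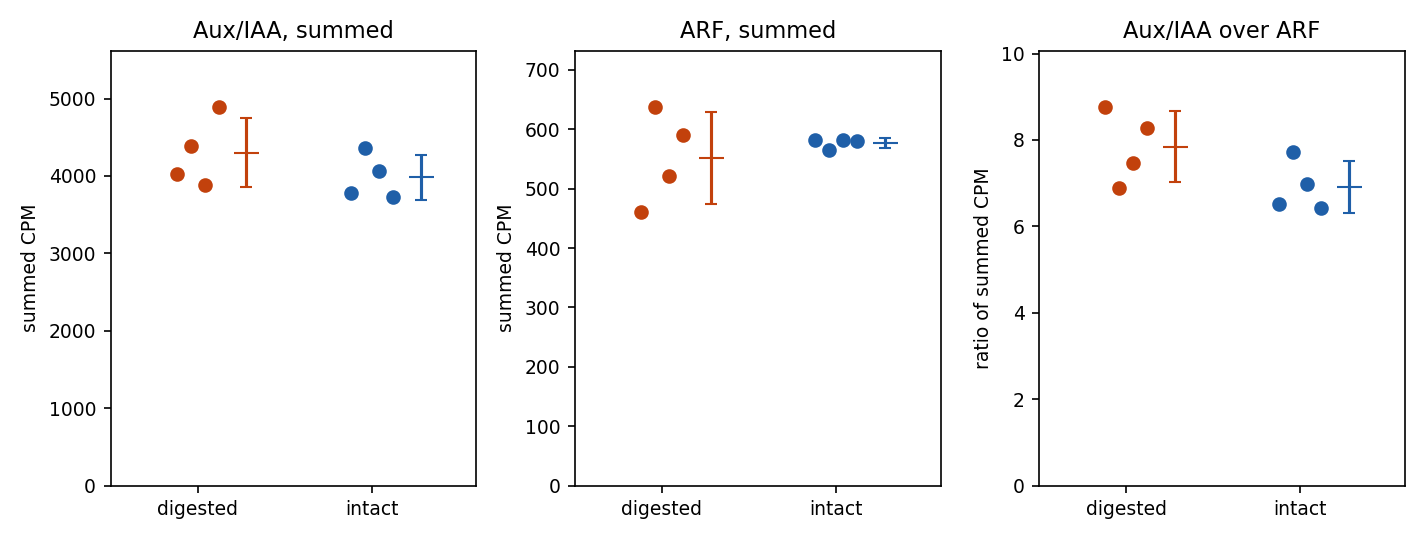
Summed CPM of the Aux/IAA family and of the ARF family and their ratio in each library, digested roots to the left of intact roots, with the mean and SD of 4 libraries beside the points. All 3 panels start at 0 and show overlap of the groups, with ratios of 6.90 to 8.75 in digested and 6.42 to 7.72 in intact roots.

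Within the families the order of members below the leading gene differed between the groups, here as a description without a test. OsIAA13 led the Aux/IAA family in all 8 libraries, with 37.3 ± 1.78% of its summed CPM in digested and 34.6 ± 2.94% in intact roots. OsIAA12 stood at rank 2 in digested roots with 8.25 ± 1.90% and at rank 11 in intact roots with 2.45 ± 0.25%. OsIAA19 stood at rank 3 with 8.02 ± 1.82% and at rank 9 with 2.74 ± 0.43%. Neither was among the first 8 Aux/IAA genes of intact roots. OsIAA31, by contrast, stood at rank 7 in digested roots with 5.13 ± 0.64% and at rank 2 in intact roots with 11.4 ± 2.06%. In the ARF family OsARF9 held the first place by mean share in both groups, with 16.4 ± 3.46% in digested and 13.2 ± 0.93% in intact roots, although OsARF4 led in digested replicate 1 and OsARF6 in digested replicate 4. OsARF6 stood at rank 3 in digested roots with 12.5 ± 3.05% and at rank 14 in intact roots with 2.70 ± 0.71%. OsARF22 stood at rank 9 with 4.57 ± 1.41% and at rank 2 with 9.29 ± 1.17%. Among the activators the leading gene was OsARF6 in all 4 digested libraries and OsARF21 in all 4 intact libraries. Ranks of neighbours with overlapping SDs are not separated by these data, which holds for most ARFs in digested roots. Each library detected 16 to 21 Aux/IAA genes in digested and 25 to 26 in intact roots, and 13 to 20 ARFs in digested and 22 to 23 in intact roots.

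**Figure D5:**
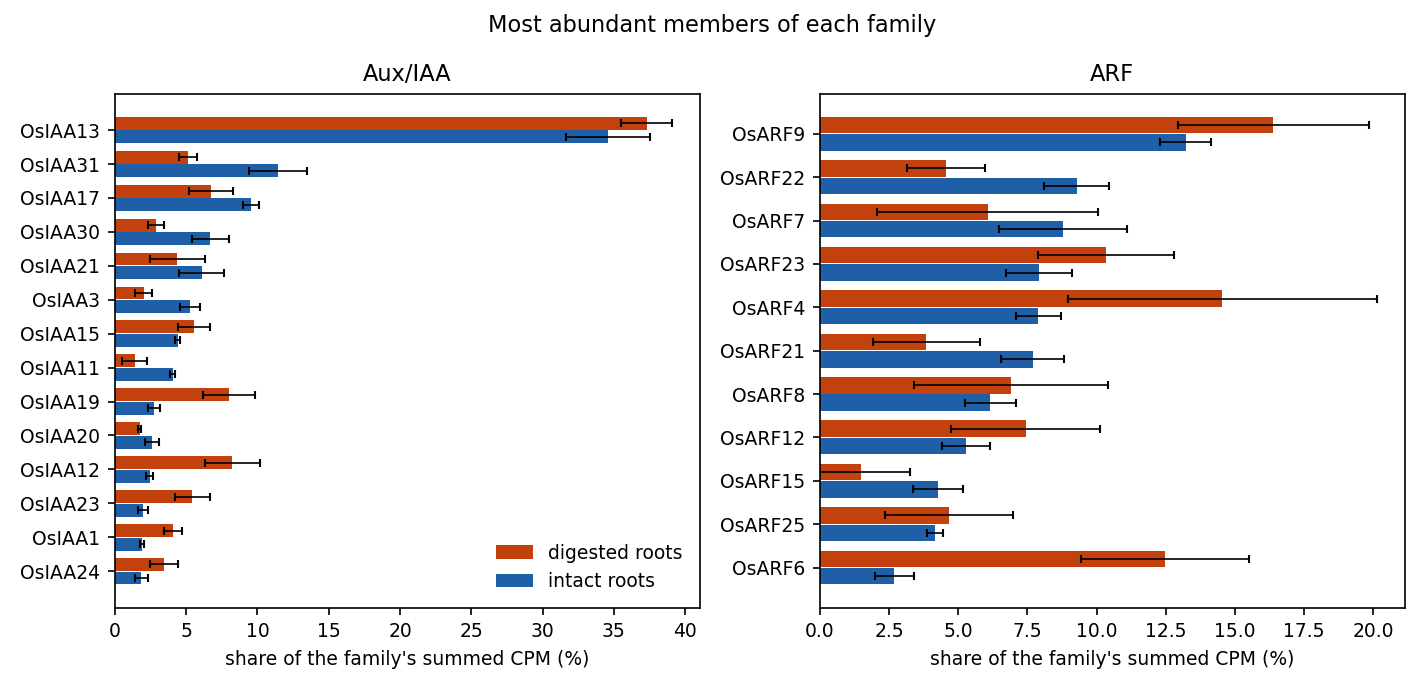
Share of the family's summed CPM held by each of the genes ranked in the first 10 of either group, as the mean of 4 libraries with bars for the SD, digested roots in orange above intact roots in blue. OsIAA13 holds over 30% of the Aux/IAA counts in both groups, and the OsARF6 bar is 12.5% in digested and 2.70% in intact roots.

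Other genes of the auxin pathway were taken from the same sheet, 56 in all, of which 24 could be tested and 13 were called, 4 higher and 9 lower in digested roots, beside 20.0% higher and 18.5% lower over all tested genes. Among 16 genes of auxin biosynthesis 4 were tested. OsYUC6, a flavin monooxygenase of the last step of auxin synthesis, rose to 62.5 ± 13.8 CPM in digested roots, against 9.08 ± 1.16 CPM in intact roots (log2 fold change 2.77, SE 0.31, adjusted p = 2.47e-08, edgeR). OsTSG1, a tryptophan aminotransferase of the preceding step, fell to 23.5 ± 12.4 CPM in digested roots, against 65.2 ± 14.0 CPM in intact roots (log2 fold change -1.28, adjusted p = 0.00290, edgeR). Of 3 tested genes of auxin metabolism, both enzymes named next rose. OsGH3-8, which conjugates auxin to amino acids and is itself auxin-induced, had 184, 118, 251 and 204 CPM in digested roots and 6.83, 7.32, 7.53 and 10.7 CPM in intact roots. Its log2 fold change of 4.42 (SE 0.27, adjusted p = 1.33e-13, edgeR) exceeded that of every Aux/IAA and ARF gene. DAO, an auxin oxidase, averaged 77.6 ± 10.2 CPM in digested and 26.4 ± 2.55 CPM in intact roots (log2 fold change 1.52, adjusted p = 1.94e-05, edgeR).

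Of the 5 F-box receptors that bind Aux/IAA proteins, 4 were tested and 1 was called, where 38.5% of all tested genes were. OsAFB2 averaged 136 ± 29.3 CPM in digested and 92.7 ± 14.5 CPM in intact roots, OsAFB3 averaged 36.5 ± 13.9 CPM against 26.1 ± 2.34 CPM, and OsAFB4 averaged 111 ± 32.1 CPM against 101 ± 9.69 CPM. None of these passed the test, with adjusted p-values of 0.0749, 0.154 and 0.657 (edgeR). The gene listed as OsAFB6/OsAFB5 had 61.4, 27.04, 46.5 and 22.7 CPM in digested roots and 13.3, 19.1, 25.5 and 20.7 CPM in intact roots. The groups overlapped, and its call (log2 fold change 0.96, adjusted p = 0.0348, edgeR) was lost under DESeq2's size factors, total counts, upper-quartile factors, no filter, DESeq2 and the replicate block (adjusted p = 0.0708, 0.142, 0.120, 0.0744, 0.0669 and 0.0609). It was also lost without any of 6 single libraries, with an adjusted p of 0.378 and a value of 0.51 without digested replicate 1. The other 5 are digested replicates 2 and 3 and intact replicates 1, 2 and 4, with log2 fold changes of 1.06, 0.82, 0.77, 0.90 and 0.89. OsTIR1 had no count in digested roots and 48 counts in intact roots, 4.05 ± 2.52 CPM, which is near the 3.43 CPM that 3 counts over the digested libraries amount to.

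Of 23 auxin transport genes listed and 10 tested, edgeR called 5 lower and 0 higher in digested roots, where 18.5% and 20.0% of all tested genes were lower and higher, with 0 higher also at an unadjusted p under 0.05, by DESeq2 and by limma-voom. The efflux carriers OsPIN1a and OsPIN1b averaged 51.3 ± 23.5 and 33.5 ± 7.70 CPM in digested roots and 121 ± 24.4 and 107 ± 23.1 CPM in intact roots, log2 fold changes of -1.26 and -1.69. The influx carrier OsAUX1 averaged 28.9 ± 11.9 CPM in digested and 89.5 ± 9.21 CPM in intact roots (log2 fold change -1.75, adjusted p = 2.73e-05, edgeR). OsAUX3, known in rice grain as a gene downstream of OsARF6, had 1 count in digested and 149 in intact roots (log2 fold change -3.35, adjusted p = 0.00440, edgeR), and without digested replicate 1, which holds the count, the fitted value was -7.50. OsAUX3 could be tested only with all 4 intact libraries, the group where it is high. OsPILS2 averaged 19.8 ± 8.07 CPM in digested and 40.7 ± 8.39 CPM in intact roots, with a call that was lost without digested replicate 1 (log2 fold change -0.98, adjusted p = 0.0618, edgeR). That call was also lost by limma-voom and with the replicate block. Beyond these classes, OsSAUR33 fell to 21.7 ± 10.6 CPM in digested roots, against 64.6 ± 20.6 CPM in intact roots (adjusted p = 0.00272, edgeR). CYP87A3, an auxin-induced cytochrome P450 gene of rice, had no count in digested roots and 260 counts in intact roots, at least 6.30-fold lower when 3 counts over the digested libraries are taken as the floor. The sheet also gives OsIAA5 under LOC_Os01g48444, outside the listed loci, which averaged 35.4 ± 9.86 CPM in digested and 119 ± 22.2 CPM in intact roots (log2 fold change -1.65, adjusted p = 2.19e-05, edgeR).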

How the data were processed

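QuantSeq 3′ FWD libraries with unique molecular identifiers were made from 4 digested and 4 intact root samples. The authors deposited 1 table of whole counts per gene for each library, without normalization, from reads aligned to the Michigan State University rice genome, release 7, and counted with HTSeq. The submitters' processing notes name STAR, UMI-tools, HTSeq and edgeR, without versions. The 5 summary lines of HTSeq, which name no gene, entered neither library sizes nor tests.

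Groups and replicate numbers came from the sample labels. edgeR 4.0.16 (R 4.3.3) was run on the condition alone, with genes kept by filterByExpr for the groups, TMM scaling, robust glmQLFit and glmQLFTest, a prior count of 0.125 and Benjamini-Hochberg adjustment over 13104 genes. Fold changes are digested over intact roots. Standard errors were derived from the size of the log2 fold change and the root of its F statistic. CPM were scaled by TMM library sizes over the tested genes. Where a group had no count, 3 counts over the 4 libraries served as its floor, and exact binomial intervals (95%) of summed counts cover counting error only. The procedure was tested on simulated data at the real depths. There all genes had the same spread, and a small set was changed, equally in both directions. That check cannot speak to the choice of scaling or to genes of unequal spread. Between libraries of a group the counts differed by 1.99 to 8.43 times the sampling noise (a chi-square over its degrees of freedom), so none was a repeat of another.

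Members, gene lists and markers were chosen with earlier results of these data known. Values per library were given for called members with a log2 fold change of at least 2 in size, the 4 most abundant members of each family, and the 2 called members of each family furthest against its majority. Of the other auxin genes, receptors and the extreme called genes of each class with a mean of at least 10 CPM were named by the same rule, and the rest were added after their values were seen. Names come from the study's sheets. The reference name table held none of these identifiers, so positions, promoters and proteins were not used here. Alternatives were DESeq2's size factors, total counts, upper-quartile factors, no filter, at least 10 CPM in 4 libraries, DESeq2 1.42.0, limma-voom (limma 3.58.1), a replicate block, an adjusted p under 0.01, intact counts thinned to the digested depth, and each library left out in turn. A fit with only the deepest 2 digested libraries was chosen once their totals had been seen. Figures were drawn with matplotlib 3.10.9.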

Additional observations from a re-analysis of the deposited data

Results flagged for a closer look

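In 82 sets of 4 libraries (each tested member and each family sum in each group), 6 held a library set apart from the other 3 by Dixon's criterion at 95%. For normally distributed values chance alone gives about 4.1. That figure does not apply to low genes, because a set in which a single library has a count is always flagged. For 3 low genes the odd library was digested replicate 2, the deepest of its group, and the other 3 digested libraries had no count. OsARF3 had 7.37 CPM there, OsARF5 had 2.46 CPM and OsIAA2 had 2.46 CPM. OsIAA30 was low in digested replicate 3, at 83.6 CPM, where digested replicates 1, 2 and 4 had 136 to 140 CPM. OsIAA21 was high in intact replicate 1, at 319 CPM against 208 to 220 CPM. The summed ARF level was low in intact replicate 2, at 565 CPM against 581 to 582 CPM, a gap of under 20 CPM in a tight group.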

How the results depend on the processing

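The 6 rises among Aux/IAA genes were called without every single library, and the 21 called members kept their direction under every alternative in which they could be tested. Of these, 16 never lost the call, and 9 of the 16 could be tested under every alternative. Of the 17 members not called, 8 changed sign somewhere and 6 gained a call somewhere. Scaling mattered: relative to TMM, the median of all genes shifted by -0.14 under DESeq2's size factors, -0.31 under total counts and -0.27 under upper-quartile factors. Over all genes, TMM gave 2618 higher and 2430 lower calls, total counts 2048 and 3722. Under total counts and upper-quartile factors, 11 and 11 Aux/IAA genes were lower, and 1 and 1 ARF was higher. Among the genes given with a fold change, values that changed sign under these 2 scalings were -0.088 and -0.033 for OsIAA13, -0.12 and -0.079 for OsARF9 and -0.17 and -0.12 for OsAFB4. OsARF19, OsARF25 and OsPIN2/LRA1, given without one, also changed sign under both, and OsARF8 under total counts. Without a filter, 12 Aux/IAA genes were lower, 5 Aux/IAA genes passed a log2 fold change of 2 in size, and the medians were -1.07 (Aux/IAA) and -0.64 (ARF). That number of Aux/IAA genes was 1 with at least 10 CPM in 4 libraries and 1 at an adjusted p under 0.01, and limma-voom left 1 ARF past 2.

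With intact counts thinned to the digested depth, 4587 genes, 14 Aux/IAA genes and 5 ARFs could be tested. Then 0 ARFs were higher (1 at an unadjusted p under 0.05) and 1 was lower by edgeR, 0 Aux/IAA genes and 0 ARFs passed 2 (0 and 0 unadjusted), the ARF median was 0.036, and 7 other auxin genes were called. DESeq2 and limma-voom, at full depth, called 2 and 2 ARFs higher. With the deepest 2 digested libraries alone, 3 ARFs passed 2, the Aux/IAA median was -0.97 and OsARF9 was at -0.030. The filter was applied anew whenever libraries were left out, so the tested genes differed between those fits. Leaving out single libraries gave 5 to 10 lower Aux/IAA genes, 1 to 2 higher and 2 to 7 lower ARFs, 0 to 4 Aux/IAA genes and 0 to 5 ARFs past 2, medians of -0.66 to -0.33 (Aux/IAA) and -0.96 to 0.17 (ARF), 10 to 13 other auxin genes, OsAFB4 at -0.057 to 0.17, OsARF23 at -0.037 to 0.52 and a family ratio difference of 0.13 to 0.24. The 0 for Aux/IAA genes came without intact replicate 4 and that for ARFs without intact replicate 2, each also 0 at an unadjusted p under 0.05 by edgeR. DESeq2 called 3 Aux/IAA genes and 4 ARFs past 2 with all libraries.

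No pairing by replicate number was seen: deviations of same-numbered libraries from their group means correlated at -0.30, 0.06, -0.12 and -0.06. These values cannot exclude a pairing, because counting error is large at the depth of the digested libraries. A replicate block gave 6 higher and 7 lower Aux/IAA genes and 2 higher and 4 lower ARFs. Depth limits the low members most, since 1 count in digested roots is worth up to 9.29 CPM.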
